A study of Mus musculus with 4 samples.

Results

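The cell-cell junction genes of the epidermis were compared between loricrin knockout and wildtype newborn mouse skin. They comprise 9 genes: the claudins Cldn1, Cldn3, Cldn4 and Cldn7, occludin (Ocln), the scaffold Tjp1, the junctional adhesion molecule F11r, and the cadherins Cdh1 and Cdh3. They were taken by gene symbol, from a list set with earlier results of these data known. Every probe set (the group of short probes that reports 1 transcript) that the platform annotation gives to 1 of these symbols alone was kept, whatever its value. That yielded 15 probe sets, 13 from the first array type and 2 from the other, among 13674 named genes measured in the series. The study hybridised total RNA of whole skin taken at postnatal day 0 to Affymetrix arrays. The loricrin knockout group and the wildtype group had 2 arrays each, both on the FVB/N strain, and each of the 2 array types held 1 array per genotype. The comparison asks how junction transcripts stand in newborn skin that lacks loricrin, the most abundant component of the cornified envelope. The labels give no sex and no litter, and do not say whether RNA was pooled or whether the arrays labelled replicate came from other animals.

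Tight junctions seal the space between neighbouring cells. Claudins and occludin span the membrane and form the seal, F11r (JAM-A) is an immunoglobulin-type adhesion protein beside them, and Tjp1 (ZO-1) is the cytoplasmic scaffold that ties them to actin. In the epidermis functional tight junctions lie in the granular layer, below the cornified layer, and mice without claudin-1 die soon after birth from water loss through the skin. Adherens junctions hold cells together through cadherins linked by catenins to actin. E-cadherin (Cdh1) is present in all living epidermal layers, while P-cadherin (Cdh3) is concentrated in basal cells and in the hair follicle.

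The upstream sequences of 3 of the genes are shown because E-box motifs, the sites of the Snail, Zeb and Twist factors that repress Cdh1 and several claudins, are a known feature of junction genes, and because these 3 genes span the ratios given below from lowest (Cldn4) to highest (F11r) among genes with a listed window. Each run gives the 250 bases before the annotated start, 5′ to 3′ on the gene's strand, from RefSeq on GRCm38.p6, with the E-box in capitals. The Cldn4 window is chr5:134946935-134947184 on the minus strand, that of F11r chr1:171437311-171437560 on the plus strand and that of Cldn1 chr16:26371840-26372089 on the minus strand.
Cldn4: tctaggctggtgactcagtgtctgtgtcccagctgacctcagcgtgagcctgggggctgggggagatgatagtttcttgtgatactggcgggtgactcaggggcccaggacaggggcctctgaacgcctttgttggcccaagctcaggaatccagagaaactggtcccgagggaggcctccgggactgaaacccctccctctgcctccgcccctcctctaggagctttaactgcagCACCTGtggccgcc
F11r: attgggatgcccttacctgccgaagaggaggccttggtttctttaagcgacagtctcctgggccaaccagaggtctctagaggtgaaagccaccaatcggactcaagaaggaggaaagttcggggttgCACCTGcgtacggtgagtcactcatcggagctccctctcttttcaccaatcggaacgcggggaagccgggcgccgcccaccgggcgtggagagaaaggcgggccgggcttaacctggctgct
Cldn1: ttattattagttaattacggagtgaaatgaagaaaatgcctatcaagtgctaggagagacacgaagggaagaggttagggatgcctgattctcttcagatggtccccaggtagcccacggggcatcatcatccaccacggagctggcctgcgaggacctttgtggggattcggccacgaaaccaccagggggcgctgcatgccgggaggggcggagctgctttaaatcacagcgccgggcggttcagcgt
The E-box was searched as CAGGTG or CACCTG, which reads both strands. Its first base lies 14 bases before the start in Cldn4 and 122 bases before it in F11r, and the Cldn1 window holds none. Windows were listed for 7 of the 9 genes, 9 windows in all, and 4 of these, in Cldn4, Cldn7, F11r and Ocln, held an E-box, against 17.2% of all 32851 windows of that length. GC boxes (GGGCGG or CCGCCC) were in 8 of the 9 windows against 32.7% of all, CCAAT boxes (CCAAT or ATTGG) in 2 against 33.8%, and the Grainyhead motif AACCGGTT in none against 0.116%. None of the 6 E-box matches overlapped another of these motifs. These are matches of letters and not measured binding. Cdh1 and Cdh3 lie side by side on chromosome 8 with no protein-coding gene between them, as do Cldn3 and Cldn4 on chromosome 5.

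The deposited signals shared a 2% trimmed mean of 500.2 to 500.4 on all 4 arrays. A signal was treated as measurable above a floor, the mean of the 40th percentiles of a type's arrays, 77.6 for the first type and 133 for the second. On the first type loricrin (Lor) read 2013 in knockout against 41224 in wildtype, and Xist, which marks the inactive X chromosome, 857 in knockout against 24.7 in wildtype. Kdm5d, a gene of the Y chromosome, read 12.2 in knockout against 976 in wildtype on its brighter second-type probe set. Sex and genotype therefore cannot be told apart in any ratio below. Of the keratinocyte markers, Krtdap read 22288 in knockout against 33376 in wildtype, while the basal keratins Krt5, Krt14 and Krt15, picked after their values were known, lay below the floor in both on the first type. On the second type a Krt15 probe set, of the _f_at kind, read 26582 in knockout against 22304 in wildtype. No lack of basal keratin RNA can therefore be read from the first-type probe sets.

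None of the 7 junction genes with a signal above the floor differed by 2-fold, and the other 2, Cldn3 and Cldn7, could not be compared. Of the 13 probe sets on the first type 0 passed 2-fold in either direction, where 2.09% of all 12422 probe sets did, and of the 2 on the second type 0 passed, where 3.32% of 12411 did. With 1 array per genotype and type there is no replicate error and no test within a type, so the log2 ratios of knockout over wildtype below are descriptions of these arrays. Of the 7 junction genes compared, 5 read somewhat lower in knockout under the scaling used. Of the 11 probe sets above the floor 8 had a ratio below 0, covering 5 genes (Cldn1, Cldn4, Ocln, Tjp1 and Cdh1), and 3 had one above 0, covering F11r and Cdh3. Among the 8, Ocln is counted by 3 probe sets and Cldn1 by 2. Under the spike-in scaling described below 7 of the 8 turned positive. On the first type that is 6 of 9 below 0, against 48.5% of all probe sets above the floor, and the median ratio was -0.26 against 0.014 for all. On the second type it was 2 of 2, both of Ocln, against 49.6%, with a median of -0.29 against 0.0038. In whole skin, fewer keratinocytes and less junction RNA per keratinocyte cannot be told apart.

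**Figure D1:**
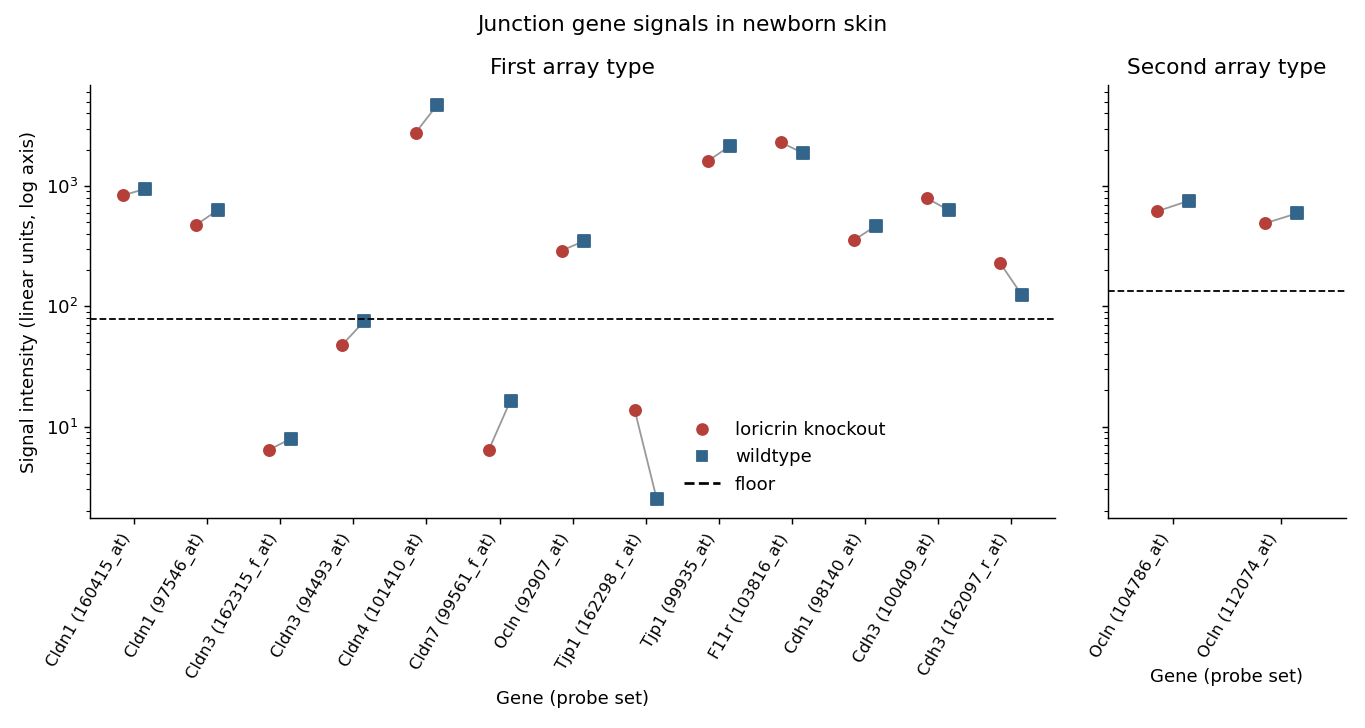
Signal intensity of every junction probe set (linear units on a log axis) in the loricrin knockout array (circles) and the wildtype array (squares) of each array type, 1 array per point, with the floor as a dashed line. 4 probe sets lie below the floor in both arrays, and F11r and both Cdh3 probe sets are the 3 above it with a higher knockout signal.

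Among the claudins, Cldn4 had the lowest ratio of all junction genes. Claudin-4 is a sealing claudin of the upper epidermis. Its 1 probe set read 2762 in knockout against 4736 in wildtype, a log2 ratio of -0.78 or 1.71-fold lower. Of all probe sets above the floor on that type 3.58% had a ratio as low or lower, and among the 500 nearest in mean signal 1.40% did, the central 95% of which ran from -0.66 to 0.64. Cldn4 thus lay just outside the range of equally bright probe sets, though short of 2-fold. As the lowest of 11 junction probe sets it is an extreme by selection, and 2 of the 11 lay outside their own such range.

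Claudin-1, the claudin whose loss opens the epidermal barrier, was read by 2 probe sets, both lower in knockout. The brighter one had 835 in knockout against 945 in wildtype, a log2 ratio of -0.18. The other had 475 in knockout against 634 in wildtype, a ratio of -0.42. Both lay inside the central 95% of equally bright probe sets, the brighter at the 20.8th percentile of those 500. The difference between the 2 probe sets, 0.24, was below the median difference of 0.31 between 2 probe sets of 1 gene over the 900 genes that allow it. Of those genes 58.9% had 2 ratios of the same sign.

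Cldn3 and Cldn7 could not be compared. Both claudins are found in simple epithelia, with lower amounts in epidermis. The 2 probe sets of Cldn3 read 48.0 and 6.44 in knockout and 75.3 and 7.95 in wildtype, and that of Cldn7 read 6.34 in knockout against 16.5 in wildtype. All lay below the floor on both arrays, so neither a difference nor its lack can be read from them. The dimmer Cldn3 probe set and that of Cldn7 carry the suffix _f_at, which marks probes shared by a sequence family.

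Occludin, the 4-pass membrane protein of the junction strand, was the 1 junction gene measured on both array types, by 3 probe sets in all. On the first type it read 290 in knockout against 347 in wildtype. On the second type its 2 probe sets read 613 and 488 in knockout and 753 and 591 in wildtype. Each knockout signal was lower than its wildtype counterpart, and the log2 ratios of -0.26, -0.30 and -0.28 lay close together. The 2 second-type ratios differed by 0.019, where the median difference between 2 probe sets of 1 gene there was 0.33. A shared sign was common: 61.5% of genes with 2 probe sets on that type had it. Between the 2 types it was found for 609 of 1082 genes. Ocln was also the 1 junction gene that could be tested over all 4 arrays. In limma with the array type as a block its log2 ratio was -0.28 (SE 0.24, n = 2 arrays per genotype, lower on 2 of 2 types, limma adjusted p = 0.761 over 1082 genes on both types, of which 1 or 0.0924% passed). The 95% confidence interval, -0.78 to 0.23, includes 0. Its 1 residual degree of freedom was joined by 15.4 from all genes, and nothing says that the arrays hold different animals.

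The scaffold and the adhesion molecule of the tight junction went opposite ways by small amounts. Tjp1, which encodes ZO-1, read 1606 in knockout against 2144 in wildtype, a log2 ratio of -0.42 or 1.33-fold lower, at the 5.40th percentile of the 500 probe sets nearest in signal. A further Tjp1 probe set, with the suffix _r_at for a relaxed probe selection, read 13.7 in knockout against 2.51 in wildtype, both far below the floor. F11r read 2300 in knockout against 1878 in wildtype, a log2 ratio of 0.29 or 1.22-fold higher, at the 81.0th percentile. Both ratios lay within the central 95% of equally bright probe sets.

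The cadherins also went opposite ways. E-cadherin (Cdh1) read 355 in knockout against 465 in wildtype, a log2 ratio of -0.39 or 1.31-fold lower, at the 10.4th percentile of the 500 probe sets nearest in signal. P-cadherin (Cdh3) read 788 in knockout against 626 in wildtype on its brighter probe set, a ratio of 0.33 or 1.26-fold higher, at the 79.6th percentile. Its other probe set, of the _r_at kind, read 229 in knockout against 123 in wildtype, a ratio of 0.89 or 1.86-fold higher, at the 97.8th percentile, outside the central 95% (-1.07 to 0.82). The 2 Cdh3 probe sets had the same sign, as did 58.9% of all such pairs on that type. They differed by 0.56, more than the median of 0.31 for pairs of probe sets and less than its 95th percentile of 1.07.

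**Figure D2:**
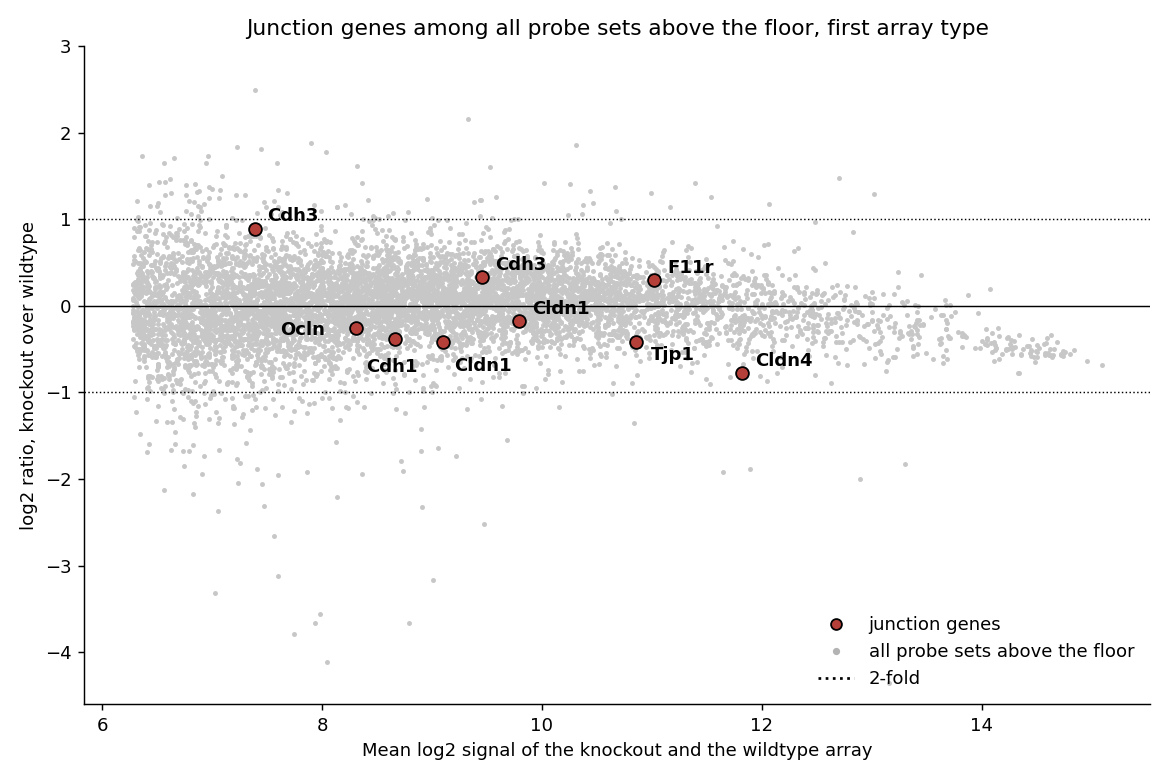
The log2 ratio of knockout over wildtype against the mean log2 signal of both arrays for all probe sets above the floor on the first array type (grey) and the 9 junction probe sets there (red), with dotted lines at 2-fold. All 9 lie between the lines, Cldn4 lowest at -0.78 and 1 of the 2 Cdh3 probe sets highest at 0.89.

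Differences between junction genes within the same 2 arrays do not depend on a scaling by 1 factor. The 2 pairs given were picked after their values were seen, from genes with ratios of opposite sign, so the differences are descriptions. The ratio of Cdh3 on its brighter probe set exceeded that of its chromosomal neighbour Cdh1 by 0.72 on the log2 scale (0.63 to 0.72 over the settings in the plot of ratios by setting). The ratio of F11r exceeded that of Cldn4 by 1.07 (1.00 to 1.07). Each difference rests on 1 probe set per gene.

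At a looser rule of 1.5-fold, 2 of the 13 first-type probe sets passed, Cldn4 lower and the dimmer Cdh3 probe set higher, where 4.69% of all were lower and 4.11% higher by that much (8.8% in either direction). Of the scalings tried, the spike-in scaling was the 1 that turned signs of junction ratios. The 9 bacterial spike-in probe sets, a control usually added in fixed amounts, had a mean log2 ratio of -0.69 on the first type, and setting that to 0 moved the median of all probe sets there to 0.69. Under it the member median was 0.43 and both Cdh3 probe sets passed 2-fold, at 1.02 and 1.58, while Cldn4 stood at -0.091. Set against the median of all probe sets, 6 of the 9 first-type junction probe sets were below it and 3 above. A shift common to all probe sets leaves that position almost unchanged by construction, so the split adds no support. So each direction given here is one relative to the bulk of the probe sets on an array.

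**Figure D3:**
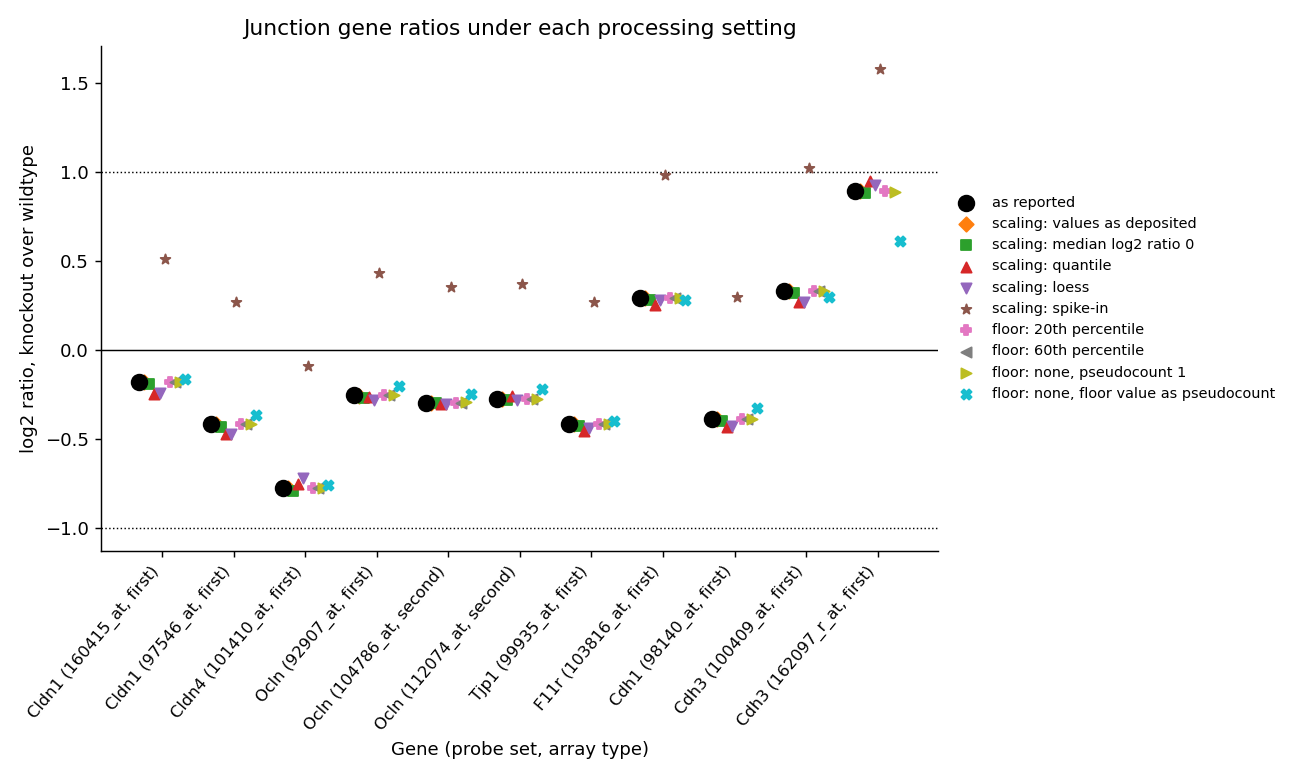
The log2 ratio of knockout over wildtype for the 11 junction probe sets above the floor under each scaling and floor, with dotted lines at 2-fold. Every setting except the spike-in scaling (stars) leaves the ratios close to the values reported (black), with Cldn4 between -0.79 and -0.72, and the spike-in scaling raises them together. The dimmer Cdh3 probe set has no value with the floor at the 60th percentile.

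Partners of these proteins in the junction were taken in whole lists drawn from knowledge of the pathway. A further list held transcription factors that act on cadherin and claudin genes. Over all these lists 1 gene was at least 2-fold higher and 1 lower on each array type. On the first type both were transcription factors, and in the lists of junction proteins 0 passed there. These counts are to be read beside the shares of all genes given next. In list counts a gene took its probe set of highest mean signal. A gene below the floor on both arrays is counted as measured but could not pass, in the lists and in the shares of all genes alike. At that level 0.812% of genes were at least 2-fold higher and 1.33% lower on the first type (2.15% in either direction), and the second had 1.63% higher and 2.06% lower (3.69%). Of the other claudins the first type measured 6 and the second 8, and 0 passed 2-fold on either. However, 5 of the 6 and 3 of the 8 lay below the floor on both arrays, so nothing can be read from those. Cldn23, a claudin of differentiated epithelium, read 3844 in knockout against 3636 in wildtype on the second type. Cldnd1, a claudin-domain protein, had ratios of -0.0035 and -0.17 on the 2 types. The endothelial claudin Cldn5 and cadherin Cdh5, chosen after their values were seen, lay below the floor on both arrays.

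Other tight junction membrane and plaque proteins had more ratios above 0 than below it. Of 16 on the first type 0 passed 2-fold, 8 of the 12 above the floor had ratios above 0, and the median was 0.30. Of 23 on the second type 1 was at least 2-fold higher and 0 lower, 12 of 17 had ratios above 0, and the median was 0.20. The 1 that passed was Clmp, an adhesion molecule related to the coxsackievirus receptor, at 435 in knockout against 193 in wildtype (2.25-fold). Its log2 ratio of 1.17 became 0.48 under a floor raised to the 60th percentile and 0.80 with the floor value as a pseudocount, both short of 2-fold. A second Clmp probe set read below the floor on both arrays. Ybx3 (ZONAB), a transcription factor that binds ZO-1, read 6248 in knockout against 4034 in wildtype, a ratio of 0.63. The tricellular junction protein Lsr had a ratio of 0.41. The polarity proteins Pard3 and Pard6g had ratios of -0.03 and 0.22 on the second type. These medians stand above 0 while that of the 9 junction genes stands below it, a contrast that was not tested.

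On the cytoplasmic side of the adherens junction, 0 of 29 catenins and associated proteins passed 2-fold on the first type, as did 0 of 12 on the second. The medians were 0.063 and -0.13. Plakoglobin (Jup), a catenin that adherens junctions and desmosomes share, read 7095 in knockout against 6350 in wildtype. The small GTPase Rac1 had a ratio of -0.13. The core catenins were chosen after their values were seen. On their brightest probe sets Ctnna1 had a ratio of 0.27, Ctnnb1 -0.10 and Ctnnd1 0.18, next to -0.39 for Cdh1. A further Ctnnd1 probe set, also above the floor, went the other way at -0.20. On the second type the actin regulator Enah had a ratio of 0.22 and Ctnnbip1, an inhibitor of beta-catenin, one of -0.60. None of 8 other cadherins lay above the floor on the first type. On the second, Cdh13 was the 1 of 2 that did, with a ratio of 0.46 on a probe set of the _f_at kind.

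Nectins, immunoglobulin-type adhesion molecules of the adherens junction, and their linker afadin showed 1 gene past 2-fold. Of 7 measured on the first type 0 passed, and of 6 on the second 1 was lower. Nectin3 read 337 in knockout against 687 in wildtype, 2.04-fold lower, on its brightest second-type probe set. Its log2 ratio of -1.03 became -0.80 with the floor value as a pseudocount and -0.38 under spike-in scaling, both short of 2-fold. Its other 2 probe sets there had ratios of -1.65 and -0.41, and that above the floor on the first type had -0.48, so the 4 probe sets above the floor all had the lower signal in knockout. For 2 probe sets of 1 gene the sign was shared in 61.5% of genes on the second type. Nectin4 and Nectin1, the brightest of the list on the second type, had ratios of 0.03 and 0.17, and Lmo7 and Ssx2ip, the brightest on the first, had -0.02 and 0.17.

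Among transcription factors that act on cadherin and claudin genes, the first type had 1 of 14 higher and 1 lower, and on the second 0 of 6 passed. Trp63, the master factor of stratified epithelium, read 1906 in knockout against 913 in wildtype (2.09-fold higher). Twist2, a dermal E-box factor, read 79.5 in knockout, just above the floor, and 394 in wildtype (4.96-fold lower). Its log2 ratio of -2.31 became -0.73 with the floor at the 60th percentile, short of 2-fold, and -1.59 with the floor value as a pseudocount. Klf4, a factor of the granular layer, had a ratio of -0.30, and on the second type Ovol1 had 0.12 and Grhl1 -0.05. The Snail, Zeb and other Twist factors were chosen after their values were seen. Snai2 read 1147 in knockout against 910 in wildtype, a ratio of 0.33. Twist1 went the other way, at 8.80 in knockout, below the floor, against 108 in wildtype. With the knockout signal set to the floor its ratio was -0.47. Snai1, Zeb1 and Zeb2 lay below the floor on both arrays. Tcf3 and Tcf4 of the same list, chosen likewise, had ratios of 0.77 and -0.12 on the first type, and Tcf4 had 0.16 on the second.

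**Figure D4:**
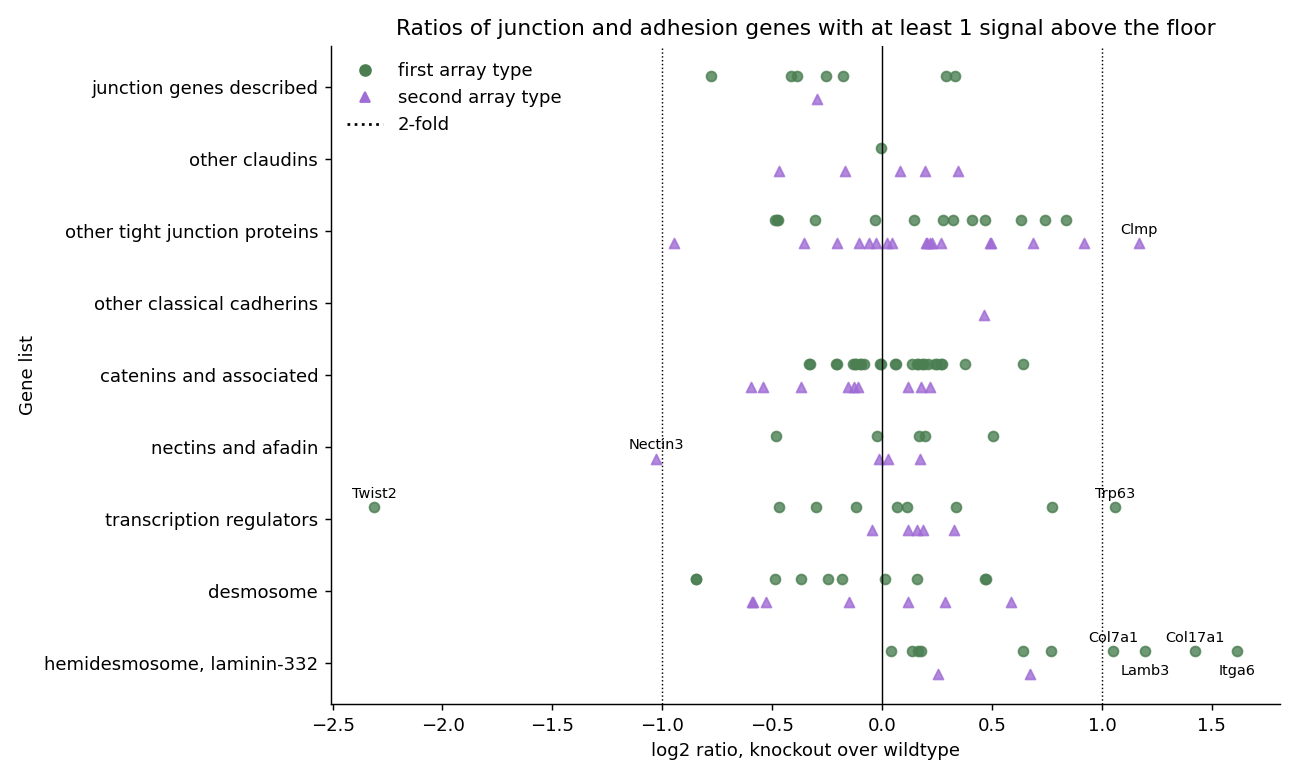
The log2 ratio of knockout over wildtype of each gene with at least 1 signal above the floor, by list, on the first (circles) and second (triangles) array type, with dotted lines at 2-fold and names for genes past it. The junction genes in the top row and the desmosome genes have none past 2-fold, while 4 hemidesmosome genes pass it on the higher side.

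Set beside the other adhesion structures of the epidermis, the junction genes had a median nearest to that of the desmosome, whose cadherins and plaque proteins join keratinocytes to each other. Of 11 desmosome genes on the first type 0 passed 2-fold, with a median of -0.22. Of 13 hemidesmosome and laminin-332 genes, which hold basal cells to the basement membrane and are listed with the 3 basal keratins below the floor, 4 were higher and 0 lower, with a median of 0.70, and they were Itga6, Col17a1, Lamb3 and Col7a1. With 1 array per genotype these differences between lists could not be tested.

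Markers of several cell types in whole skin passed 2-fold on the same arrays, and their part in the junction ratios was not tested. Of 11 keratinocyte markers on the first type 1 was higher and 0 lower, and 6 of the 8 above the floor had ratios below 0. The higher one was Trp63 at 1.06, also listed among the transcription factors, and Krt2 had 0.25. Those below 0 were Krtdap, Perp, Krt1, Krt10, Lgals7 and Sfn, so the markers did not all move one way. The median of the 8 was -0.48, and the summed signal of the 11 was 109239 in knockout against 155913 in wildtype. The 2 measured on the second type, Krt15 at 0.25 and Sbsn at -0.17, had a median of 0.04 and sums of 102908 in knockout against 108375 in wildtype. Of 12 dermal fibroblast markers 9 were lower and 0 higher, with sums of 5038 in knockout against 11675 in wildtype. The 2 of highest mean signal hardly differed, Dcn at -0.05 and Col1a2, on an _r_at probe set, at 0.007. Pdgfra had a ratio of 0.53. Of 9 endothelial markers 0 passed 2-fold and the sums were 693 in knockout against 1289 in wildtype, with Eng at -0.92. On both arrays 4 of these markers lay below the floor. Of 7 erythroid markers 3 were lower and 1 higher (5999 in knockout, 22141 in wildtype). Melanocytes and hair follicle cells also carry E- or P-cadherin. Of 7 melanocyte markers 0 passed on the first type, with sums of 2956 in knockout against 2075 in wildtype, and Dct passed on the second at 2.21-fold higher. Of 8 hair follicle markers Krt86 was higher and Krt35 lower, with sums of 2337 in knockout against 2199 in wildtype. Of 7 markers of simple epithelium and glands 0 passed (1910 in knockout, 1784 in wildtype), and likewise of 10 muscle markers (710 in knockout, 882 in wildtype) and 9 immune cell markers (4225 in knockout, 4543 in wildtype). Of these 3 lists 1, 6 and 3 markers lay below the floor on both arrays. Of 4 Schwann cell markers 1 was lower, Pmp22 (1165 in knockout, 1381 in wildtype).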

How the data were processed

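The authors' deposited values are linear intensity signals, 1 for each probe set of an array, made with MAS5, which merges the probes of a set into 1 signal, per the submitters' processing notes. Not given in the sources used here are its version, its scaling target and any filter. The number of arrays limits the precision, and 0 columns were left unmatched.

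The 2 arrays of each type were scaled to the same 2% trimmed mean, signals below the floor were set to it, and log2 ratios were taken with Python 3.11.15. The 66 control probe sets per type were left out. Of the probe sets tested 10833 and 10581 name 1 gene, 396 and 178 name several and 1193 and 1652 none. Symbols of partner and marker genes were updated by gene identifier through RefSeq (10817 and 10550 matched), while the 9 junction genes were matched by the platform symbol. Genes on both types were fitted with limma 3.58.1 under R 4.3.3, with Benjamini-Hochberg adjustment. The steps were tested on simulated data.

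Members and lists were chosen with earlier results of these data known. All 9 junction genes are named with every probe set. Of the partner lists those past 2-fold and the brightest 2 per type are named, and any other is marked as picked after seeing its value. Likeness of pattern was not searched, since 2 arrays per type give 1 ratio. Alternatives covered scaling, floor, rule of size, suffixes, value per gene and block.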

Additional observations from a re-analysis of the deposited data

How the results depend on the processing

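Under the 8 settings other than spike-in scaling all 87 values of junction gene ratios kept their sign. Each moved by less than the median difference between 2 probe sets of 1 gene. Several of these settings could hardly move them. The 2 other floors left every ratio that had a value unchanged, and the deposited values already shared a trimmed mean. Setting the median to 0 is a small common shift. The count of 87 is therefore no measure of how reliable the ratios are. Under spike-in scaling 7 turned positive, Cldn1 at 0.51 and 0.27, Tjp1 at 0.27, Cdh1 at 0.30 and Ocln at 0.43, 0.35 and 0.37, and the member medians became 0.43 and 0.36 on the 2 types, by construction of a common shift. The count of junction probe sets past 2-fold on the first type was 2 under spike-in scaling, 2 with no floor and a pseudocount of 1 (Cldn7 and the Tjp1 probe set below the floor) and 2 at 1.5-fold. Partner genes past 2-fold on the first type, 1 higher and 1 lower as reported, became 12 higher under spike-in scaling, 6 lower with the floor at the 20th percentile, 0 lower at the 60th, 2 higher and 10 lower with a pseudocount of 1, and 2 lower with the floor as pseudocount. On the second type, also 1 and 1, they became 5 higher and 0 lower, 5 and 6, 0 higher, 7 and 7, and 0 higher under the same settings in that order. Without either array of a type the Ocln ratio is that of the other type, -0.30 to -0.26, with no test. It was 0.39 under spike-in scaling, and its limma adjusted p ranged from 0.134 to 1.00 over the settings. Genes on both types past limma's threshold, 1 as reported, numbered 0 without the block, with quantile scaling, at the 20th percentile floor and with a pseudocount of 1 (unadjusted p under 0.05 for 0, 99, 84 and 98 genes), 597 under spike-in scaling, 8 under loess and 6 at the 60th percentile floor. The limma test itself pairs the arrays by type, and the labels number no replicates for any other pairing. Apart from the stated constructions the cause was not tested. The lack of replicate arrays within a type and of signal above the floor for Cldn3 and Cldn7 limits what can be seen.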
